A study of Mus musculus with 16 samples.

Results

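Resistance to methotrexate was represented by a pair of cultures, the methotrexate-resistant derivative of line 2883, a mouse T cell leukaemia line (T-ALL), and its parental culture. The libraries were identified by their labels, and they are 2 of the 16 libraries of the series, which covers 5 lines and 11 drug-resistant derivatives. Line 2883 is labelled as a precursor T cell leukaemia of thymus with the genotype Mcm2cre/cre, described as hypomorphic for Mcm2, a subunit of the replication helicase. All 6 libraries of the line share that genotype, the medium (DMEM with serum) and the batch label. The parental library carries the treatment label PBS and the derivative the label methotrexate, and the labels give neither dose nor exposure time, and do not say whether a culture is a clone or a pool. The other derivatives of the line were resistant to cytarabine, etoposide, prednisone and vincristine, 1 culture each. With 1 library per state, differences are described as ratios without a test. Changes made by resistance cannot be told apart from differences between separately grown cultures.

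Methotrexate is an antifolate that enters cells mainly through the reduced folate carrier (Slc19a1), is retained after folylpolyglutamate synthase (Fpgs) adds glutamates, and blocks folate-dependent reactions. Reduced folates carry the carbon units used for thymidylate and purine synthesis, and thymidylate synthase (Tyms) is a main consumer of them. Loss of the carrier in cultured cells selected with the drug is a textbook route to resistance. The present libraries measure RNA, and DNA copy number was not measured.

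Sequencing depth, estimated from the steps between low values, was 12144000 reads in the parental and 14064000 in the methotrexate library. Values are given as CPM, the reads of a gene scaled to a common library total, which compares libraries and not genes of unequal length. A ratio is accompanied by its 95% exact (Clopper-Pearson) binomial interval on estimated reads, which covers counting error only. A gene with 0 reads in a library is bounded against 3 reads, equal to 0.213 CPM in the methotrexate and 0.247 CPM in the parental library. The cell type was checked with T cell genes. The CD3 chains Cd3d, Cd3e and Cd3g stood at 419, 148 and 622 CPM in the methotrexate library and at 274, 229 and 449.9 CPM in the parental one. The B cell list had 2 of 10 members in the table, with a summed level of 0.227 CPM in the methotrexate library and 0.0698 to 1.12 CPM in the other 5 libraries of the line. The thymic epithelial list had 1 of 8 members, with 0 reads in the methotrexate library. The myeloid list (Itgam and Cd68, 2 of 12 members with a row) summed to 25.3 CPM against 3.85 to 20.4 CPM in the other 5, and the erythroid and megakaryocyte list, also 2 of its members, to 9.11 CPM against 2.90 to 16.9 CPM. The part of other cells in the results was not tested. In such bulk libraries, fewer cells of a kind and less RNA per cell cannot be told apart.

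Of 10818 genes at 5 CPM or more in the higher library of the pair, 551 (5.09%) were at least 2-fold higher in the methotrexate derivative and 611 (5.65%) at least 2-fold lower. The balance turned with the scaling, to 624 higher and 554 lower by median of ratios and 650 higher and 529 lower without the 50 most abundant genes. In the other 10 derivative and parent pairs the share changed in either direction ranged from 5.75% to 19.5%, with 10.7% here. The median log2 ratio of all genes was -0.10, whereas in the other 10 pairs it lay between -0.04 and 0.08. Medians of gene lists are therefore given relative to the median of all genes. Counts of genes below the parental level, given further on, likewise stand against 6371 of the 10818 genes below it in this pair.

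A group of neighbouring genes on chromosome 13 was far higher in the methotrexate derivative. Each of 13 genes lying from Ssbp2 to Thbs4 was at least 2-fold higher than in the parental library, and in each of the 13 the methotrexate library was above the highest of the other 15 of the series. The genes on either side were near the parental level, the predicted gene Gm4130 at a ratio of 0.808 (0.690 to 0.947) and Mtx3 at 1.13 (0.988 to 1.28). Msh3, which encodes a subunit of the MutSbeta mismatch recognition complex, was the furthest from the other libraries of the line among those at 5 CPM or more in the parent. It was at 61.7 CPM in the parental library, 93.9 with cytarabine, 99.6 with etoposide, 69.4 with prednisone, 119.8 with vincristine and 20449 with methotrexate, 331-fold the parental level (308 to 356). The other 15 libraries lay between 34.3 and 119.8 CPM, so their range did not come near the methotrexate value.

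Within this block the ratios were unequal. Among the 5 genes at 5 CPM or more in the parental library they ran from 20.1 for Ssbp2, a single-stranded DNA binding protein gene at the proximal edge, to 331 for Msh3. Zcchc9, a zinc finger protein gene, went from 48.6 to 2640 CPM (54.3-fold, 50.1 to 59.0). On the distal side the endosomal protein gene Zfyve16 went from 18.5 to 1052 CPM (57.0-fold, 49.96 to 65.3), and Serinc5, a lipid-transporting membrane protein gene, from 71.0 to 3608 CPM (50.8-fold, 47.5 to 54.4). The intervals of these 3 ratios overlap one another, and all lie above that of Ssbp2 and below that of Msh3. In the 4 other derivatives of line 2883 the log2 ratios of these 5 genes to the same parental library ranged from -0.64 to 1.16.

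The remaining block genes were low or absent in the parental library. Rasgrf2, an exchange factor for Ras and Rac, rested on 3 parental reads and had 4722 in the methotrexate library, 336 CPM, and it was at or below 0.255 CPM in the other 15 libraries. The ratio of 1359 has a wide interval (465 to 6593). Fam151b went from 0.997 to 273 CPM (276-fold, 158 to 534) and Ankrd34b from 0.502 to 46.4 CPM (94.0-fold, 43.0 to 257). Acot12, which encodes a liver acetyl-CoA hydrolase, and Thbs4, an extracellular matrix glycoprotein gene, had 1 parental read each and reached 7.33 and 7.26 CPM. Rasgrf2 and Thbs4 had at most 3 reads in each of the other 15 libraries. The antisense gene 4833422C13Rik went from 1.99 to 60.9 CPM (30.8-fold, 20.6 to 48.3). The predicted gene Gm20379, which lies within Msh3, and the antisense gene C030017D09Rik had 0 parental reads and 708 and 104 in the methotrexate library. The strand setting of the counting is not known here, so reads of these overlapping genes cannot be assigned with confidence.

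**Figure D1:**
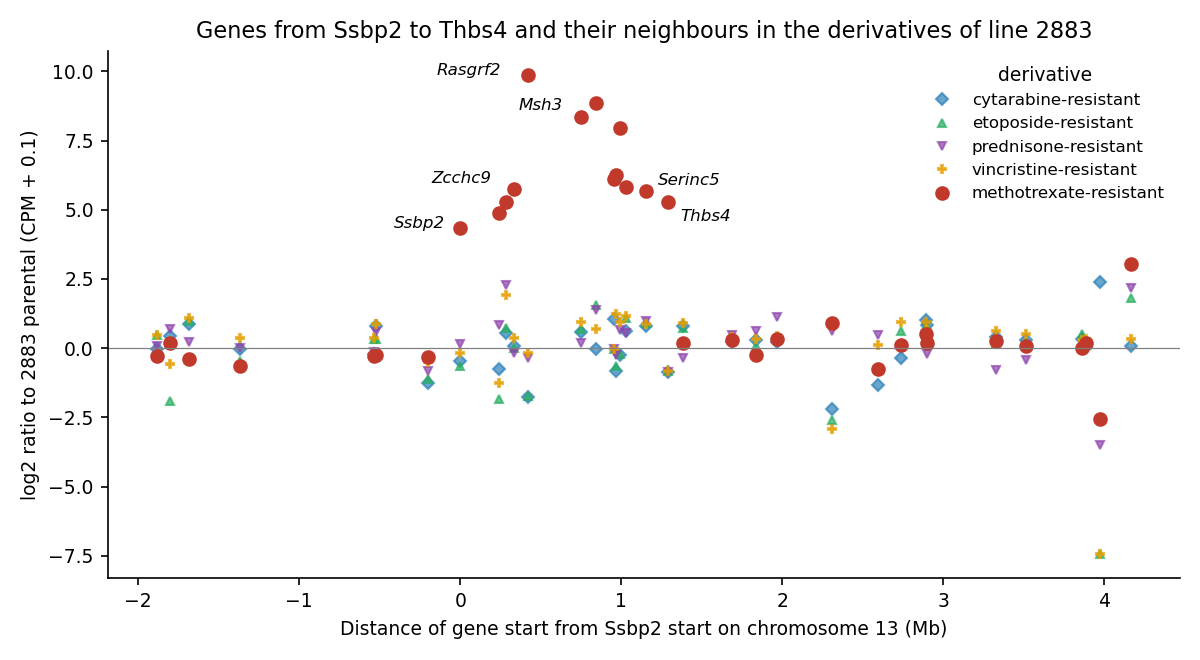
Log2 ratio to the 2883 parental library (CPM + 0.1) of genes at 5 CPM or more in the methotrexate or the parental library, plotted against the distance of the gene start from the Ssbp2 start (Mb); large circles are the methotrexate derivative and small symbols the 4 other derivatives. The 13 genes from Ssbp2 to Thbs4 stand above the other symbols, and the nearest genes on both sides of the block lie near 0.

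The transcript of the carrier was not detected. Slc19a1 (chromosome 10, 77032241 to 77061002, plus strand) was at 31.1 CPM in the parental library, 19.6 with cytarabine, 29.0 with etoposide, 40.0 with prednisone and 17.2 with vincristine, and it had 0 reads in the methotrexate library. Set against its 377 parental reads, the drop was at least 146-fold. None of the other 15 libraries of the series was below 17.2 CPM, so the methotrexate library was the only one of the 16 without the transcript at this depth. None of the 10 nearest genes at 5 CPM or more, 5 on each side, differed by 2-fold. Pofut2, the next such gene, was at 0.792 (0.651 to 0.964) of the parental level and the integrin gene Itgb2 at 0.766 (0.687 to 0.854). The promoter windows of Slc19a1 are shown because this transcript disappeared while its neighbours did not. They are the 250 bases before and 50 bases after each of the 2 annotated starts, from RefSeq on GRCm38.p6, with CG dinucleotides, the substrate of DNA methylation, in capitals.
Slc19a1 start 1, chr10:77032489-77032788, plus strand: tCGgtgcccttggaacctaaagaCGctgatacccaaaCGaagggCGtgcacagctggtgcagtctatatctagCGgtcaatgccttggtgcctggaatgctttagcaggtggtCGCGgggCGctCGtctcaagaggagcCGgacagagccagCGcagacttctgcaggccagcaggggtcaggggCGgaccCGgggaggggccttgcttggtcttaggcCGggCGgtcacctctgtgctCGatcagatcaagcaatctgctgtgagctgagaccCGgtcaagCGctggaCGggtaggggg
Slc19a1 start 2, chr10:77032962-77033261, plus strand: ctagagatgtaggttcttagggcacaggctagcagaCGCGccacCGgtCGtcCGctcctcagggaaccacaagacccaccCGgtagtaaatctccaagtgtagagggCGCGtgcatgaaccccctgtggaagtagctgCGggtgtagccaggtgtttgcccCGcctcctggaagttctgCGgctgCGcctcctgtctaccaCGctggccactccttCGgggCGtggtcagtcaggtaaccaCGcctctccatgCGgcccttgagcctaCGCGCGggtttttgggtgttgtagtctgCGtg
They hold 19 and 21 CG dinucleotides, and the median over all 32851 promoter windows was 7 (quartiles 3 and 20). Over the richest window of genes at 5 CPM or more in the parental library, found for 74.4% of them, the median was 23 (quartiles 17 and 31). The first window holds 2 matches of the GC box GGGCGG, searched on both strands, and the second none, and 35.7% of all windows hold a match. Methylation was not measured.

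The other genes of drug uptake and retention changed less. The list has 16 genes, of which 11 have a row and 9 reached 5 CPM, and 3 were at least 2-fold higher and 1, Slc19a1, lower, against 5.09% and 5.65% of all genes. Fpgs, which traps the drug in the cell, was at 22.9 CPM in the parental and 28.4 CPM in the methotrexate library (1.24, 1.06 to 1.45), within the range of the other libraries of the line (22.1 to 37.6 CPM). Ggh, the hydrolase that removes the added glutamates, was 2.58-fold higher (1.89 to 3.55, 4.62 to 11.9 CPM), and the cytarabine and prednisone derivatives were at 12.2 and 14.2 CPM. The efflux pump genes Abcc1 and Abcc2 were 2.24-fold (1.91 to 2.65) and 3.27-fold (1.95 to 5.75) higher. Abcc1 reached 38.04 CPM here and 116 and 73.6 CPM in the etoposide and vincristine derivatives, and Abcc2 reached 5.13 CPM here and 8.91 CPM with etoposide. The 3 increases thus lay within the range of the other libraries of the line. Abcc4 (1.05, 0.934 to 1.17) was near the parental level. Abcc5 (0.733), the mitochondrial folate carrier Slc25a32 (0.739) and the thiamine carrier Slc19a2 (0.724) were below it by less than 2-fold. Abcg2 and Slco4a1 stayed under 5 CPM in the pair, with 9 and 7 parental reads against 4 and 0.

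**Figure D2:**
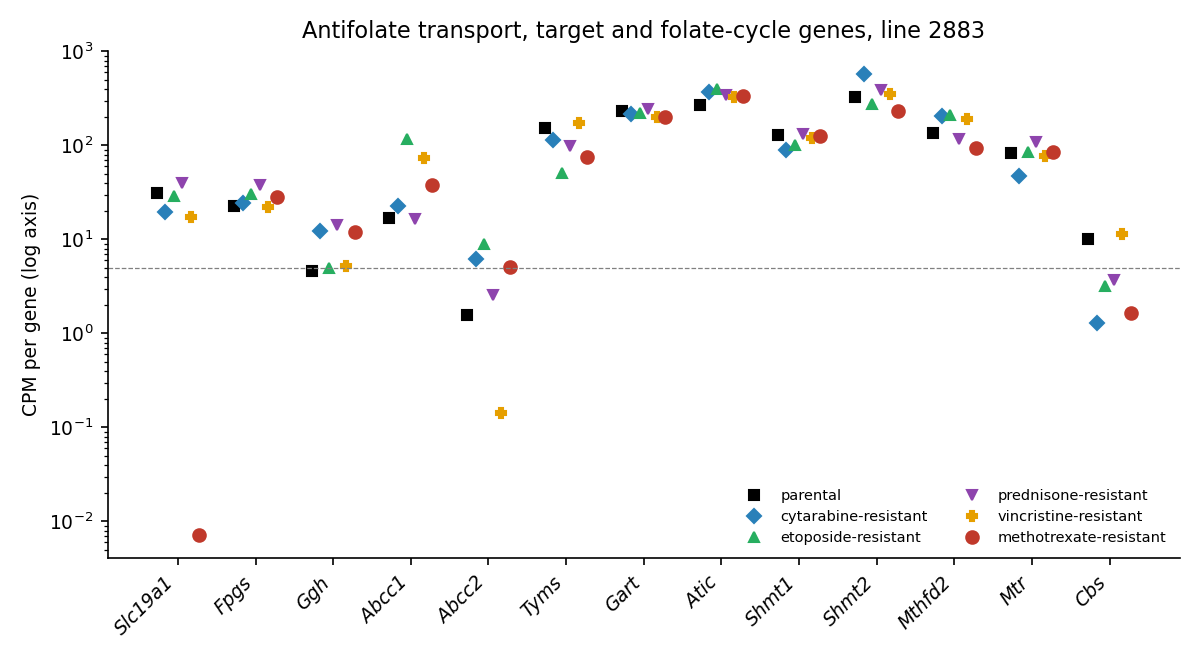
CPM (log axis) of 13 genes of antifolate transport, antifolate targets and the folate cycle in the 6 libraries of line 2883; each symbol is 1 library and the dashed line marks 5 CPM. The methotrexate library stands apart at Slc19a1, whose 0 reads are drawn at the value deposited for 0 reads.

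Tyms was the lower one of 3 antifolate target enzymes. It was at 153 CPM in the parental library, 116 with cytarabine, 51.4 with etoposide, 99.5 with prednisone, 175 with vincristine and 76.1 with methotrexate. The methotrexate value was 0.496 of the parental one (0.460 to 0.535, log2 ratio -1.01), which is under 2-fold when libraries are scaled by median of ratios (-0.94) or without the 50 most abundant genes (-0.91). The etoposide library was lower still, so the groups overlap. Gart, which carries the first folate-dependent step of purine synthesis, was at 0.859 (0.815 to 0.905) and Atic, the enzyme of the second folate-dependent purine step, at 1.25 (1.19 to 1.30).

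Most genes of the folate cycle itself differed from the parent by less than 2-fold. Of 29 genes of one-carbon and serine metabolism, 22 have a row and 20 reached 5 CPM. The summed level of the list was 2449 CPM in the methotrexate library, below the 2719 to 2965 CPM of the other 5. Of the 20 genes 15 were below the parental level, and the median was -0.15 relative to all genes. None was at least 2-fold higher and 1 was lower, against 5.09% and 5.65% of all genes. That gene was Cbs, the first enzyme of transsulphuration, at 10.1 CPM in the parental and 1.64 CPM in the methotrexate library (0.163, 0.0995 to 0.256). The cytarabine derivative had 1.29 CPM and the vincristine derivative 11.3 CPM, so the low value is not outside the range of the line. In the mitochondrial branch Shmt2 was at 0.718 (0.686 to 0.753) and Mthfd2 at 0.700 (0.651 to 0.753). Both lay below each of the other 5 libraries, at 233 CPM against 276 to 578 for Shmt2 and 94.3 CPM against 118 to 209 for Mthfd2. In the cytosol Shmt1 was at 0.980 (0.915 to 1.05) and Mthfd1 at 0.802 (0.755 to 0.852). Methionine synthase Mtr was at 1.02 (0.935 to 1.11), while its reductase Mtrr was at 0.569 (0.476 to 0.678). Mthfd1l was at 0.865 (0.790 to 0.948) and Mthfd2l at 1.18 (0.916 to 1.52). Serine synthesis genes were near the parental level, Phgdh at 1.10, Psat1 at 0.949 and Psph at 0.763. In the methionine cycle Mat2a was at 0.736, Mat2b at 1.13, Ahcy at 0.713 and Amd1, an enzyme of polyamine synthesis, at 0.537 (0.505 to 0.571). The glycine cleavage genes Gcsh and Dld were at 0.843 and 0.838, Mtfmt, which uses a folate to formylate the mitochondrial initiator tRNA, at 0.963, and Qdpr, dihydropteridine reductase, at 1.24. Amt and Sardh reached 4.98 and 4.13 CPM, just under the floor of 5 CPM, from 2.07 and 1.32 CPM.

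Nucleotide synthesis showed little more. Of 18 purine genes, all at 5 CPM or more, 1 was at least 2-fold higher and none lower, against 5.09% and 5.65% of all genes. The higher one was the adenylosuccinate synthase Adssl1 (4.35, 3.23 to 5.96). It was at 41.5 CPM in the etoposide derivative, above the 19.0 CPM of the methotrexate library. Of the 19 genes of pyrimidine and deoxynucleotide synthesis that reached 5 CPM, the 2 lower ones were Tyms and Tk2, and none was higher. Over all genes 5.65% were lower and 5.09% higher. Tk2, the mitochondrial thymidine kinase, was at 8.74 CPM in the parental library, 11.9 with cytarabine, 14.2 with etoposide, 12.1 with prednisone and 6.99 with vincristine. A single read remained in the methotrexate library (0.00815, 0.000204 to 0.0464), and none of the other 15 libraries was below 6.99 CPM.

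Lost transcripts formed a wider class. Of 10339 genes at 5 CPM or more in the parental library, 89 (0.861%) had at most 3 reads in the methotrexate library, and 56 of them had 0. The counts in the other 10 pairs ran from 16 to 91. They were spread over 19 chromosomes, 84 were protein-coding, and their parental levels were modest, with a median of 11.5 CPM and a highest value of 50.3 CPM for Kank1, a cytoskeletal regulator. Of the 89, 38 also had at most 3 reads in at least 1 of the other 4 derivatives of the line. Another 31 were at 5 CPM or more in each of the other 5 libraries of the line. Gja1, the gap junction protein connexin 43, was at 24.5 CPM in the parental library, 81.2 with cytarabine, 43.2 with etoposide, 169.6 with prednisone and 60.4 with vincristine, and had 0 reads with methotrexate (at least 115-fold lower). Slc25a13, the mitochondrial aspartate-glutamate carrier, had 449 parental reads and 0 here, a drop of at least 173-fold. Lrpap1, a chaperone of lipoprotein receptors, and Eea1 and Rab12, of endosomes, went from 279, 259 and 271 reads to 0. Rftn1, a lipid raft protein of lymphocytes, went from 165 reads to 0 and the organic anion transporter Slco3a1 from 172 to 0. Tert, the telomerase reverse transcriptase, was at 9.48 CPM in the parental and 9.60 to 23.6 CPM in the other 4 libraries, with 1 read here (0.00751, 0.000189 to 0.0427). Like Slc19a1, these transcripts were near or at 0 in the methotrexate library alone of the 6. Among the 15 lowest ratios, Trim35 (466 reads to 0) was also absent from the prednisone derivative and Bex1 (517 reads to 0) nearly absent from all 4 other derivatives. Hook1, a microtubule linker gene, had 0 reads from 413 and stood at 1.28 CPM with prednisone.

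**Figure D3:**
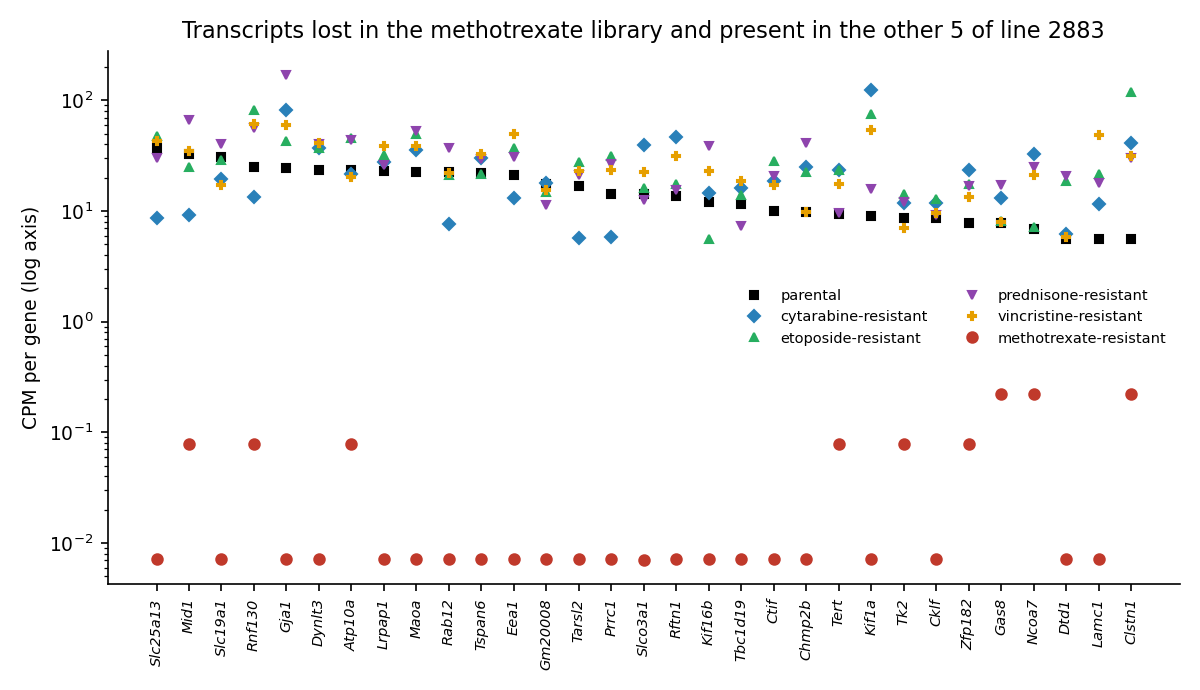
CPM (log axis) in the 6 libraries of line 2883 of the 31 transcripts with at most 3 reads in the methotrexate library and at least 5 CPM in the other 5; genes are ordered by parental level and each symbol is 1 library. The methotrexate circles lie at or below 0.220 CPM, where 0 reads are drawn at the value deposited for 0 reads.

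The CG content of promoters could not be compared for the lost genes. A RefSeq window was found for 69 of the 89 (77.5%), under 80%, so the check is void, and the median of 21 CG dinucleotides in the richest window of a lost gene is given as a value only.

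The lowest ratio of all genes at 5 CPM or more was that of an X-linked transcript. Xist, the noncoding RNA that coats the inactive X chromosome, was at 2233 CPM in the parental library, 1140 with cytarabine, 3600 with etoposide, 3150 with prednisone and 1975 with vincristine, and at 0.363 CPM with methotrexate (27121 reads to 5). In the whole series 6 of 16 libraries were under 2 CPM, and the methotrexate derivative was the only one of line 2883. The other X-linked genes showed no common shift of that size: the median log2 ratio of 342 X-linked genes was -0.16, against -0.10 for autosomal genes, and 7 (2.05%) were at least 2-fold higher and 25 (7.31%) lower, against 5.09% and 5.65% of all genes. The list of X inactivation, X escape and Y genes, of which Xist is a member, had a median log2 ratio of -0.63, or -0.53 relative to all genes, with 7 of 8 members below the parental level. Of 334 X-linked genes at 5 CPM or more in the parental library 2.99% were lost, compared with 0.790% of genes on all other chromosomes. The X-linked losses included Maoa, monoamine oxidase A (274 reads to 0), Dynlt3, a dynein light chain (287 to 0), Tspan6 (268 to 0) and Mid1, a microtubule-associated ubiquitin ligase (396 to 1). All 4 were present in the other 5 libraries of the line, and Maoa, Dynlt3 and Tspan6 had at most 3 reads in 6, 4 and 3 of the other 15 libraries of the series.

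Few transcripts were gained. Of 10397 genes at 5 CPM or more in the methotrexate library, 17 (0.164%) had at most 3 reads in the parental one, and 5 of these lie in the chromosome 13 block. The counts in the other 10 pairs ran from 2 to 72. The largest gain outside the block was Ccnb3, a cyclin gene of the X chromosome (6979652 to 7041619, minus strand) known from meiosis. It had 0 parental reads and 1637 in the methotrexate library, 116 CPM, at least 471-fold higher, and at most 0.122 CPM in the other 15 libraries. Of the 6 nearest genes at 5 CPM or more, Clcn5 differed by 2-fold, at 0.474 (0.415 to 0.542) of the parental level, and the other 5 did not. The Ccnb3 promoter window from RefSeq on GRCm38.p6 is shown with CG dinucleotides in capitals, since this gene had at most 3 reads in each of the other 15 libraries.
Ccnb3, chrX:7041570-7041869, minus strand: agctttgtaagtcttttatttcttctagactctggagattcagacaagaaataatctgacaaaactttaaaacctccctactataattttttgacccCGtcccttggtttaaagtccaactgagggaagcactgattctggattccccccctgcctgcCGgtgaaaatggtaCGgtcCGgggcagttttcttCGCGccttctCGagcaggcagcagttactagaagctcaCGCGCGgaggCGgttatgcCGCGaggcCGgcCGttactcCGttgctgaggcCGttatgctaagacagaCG
It holds 18 CG dinucleotides, most of them in its downstream part. The immediate early genes Fosb and Fos had 0 parental reads and reached 17.7 and 5.84 CPM. Fosb was also at 8.70 CPM with etoposide and 8.91 CPM with vincristine, and Fos at 2.53 CPM with etoposide. Blk, a Src family kinase gene of lymphocytes, was gained here (0 reads to 144) and stood at 39.5 CPM in the cytarabine derivative. Cyp2d22 had 0 parental reads and 8.82 CPM, above the 2.11 CPM of the next library of the series.

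The library was next set against the other 5 of line 2883 together, in which a change counts only where it leaves the range of all of them. Of 11718 genes at 5 CPM or more in any of the 6 libraries, 87 (0.742%) were at least 2-fold above the highest and 285 (2.43%) at least 2-fold below the lowest of the other 5. The same counts were 47 to 196 above and 116 to 244 below for each of the other libraries in turn. At this scaling the methotrexate library thus had the most genes below the range among the 6. Its count was 251 by median of ratios and 249 without the 50 most abundant genes, and the other libraries were not recounted. The 10 named genes furthest above the range were Ccnb3 and 9 genes of the chromosome 13 block. Those furthest below were Xist, Slc19a1, Gja1, Dynlt3, Lrpap1, Maoa, Tspan6, Eea1, Slco3a1 and Rftn1.

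Whole stretches of chromosome differed from the parent. Over runs of 10 neighbouring genes the highest median log2 ratio was 6.19, in the chromosome 13 block, and the middle 95% of 10625 runs lay between -0.58 and 0.49. The highest run outside the block (Arf3 to Spats2, chromosome 15, 98736634 to 99213215) had a median of 1.13. On chromosome 13, beyond the block, the 9 genes from Rad17 to Slc30a5 (100617164 to 100833427) had a median log2 ratio of 1.00, and from Pik3r1 (101680563) to the end of the chromosome 50 genes had a median log2 ratio of -1.14 (a ratio of 0.453). In that distal part 35 of 50 were at least 2-fold lower and 47 of 50 below the parental level, and in the other 4 derivatives the median log2 ratio of the same genes was 0.02 to 0.35. Pik3r1, a regulatory subunit of phosphoinositide 3-kinase and the first gene past the step, was at 0.462 (0.415 to 0.513). The 349 genes of chromosome 13 before Pik3r1 and outside the block, those from Rad17 to Slc30a5 included, had a median log2 ratio of -0.18. In the other 4 derivatives it was -0.58 to -0.40.

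A second stretch of lower transcripts lay on chromosome 11. From Tlk2 to Cyth1 (105178807 to 118248592) 111 genes had a median ratio of 0.483, with 64 at least 2-fold lower, 1 higher and 106 below the parental level. The other 4 derivatives had median log2 ratios of -0.11 to 0.13 over these genes. Before Tlk2 the median log2 ratio was -0.12 over 725 genes, and beyond Cyth1 it was -0.21 over 60 genes. The ribosomal protein gene Rpl38 (0.467, 0.401 to 0.543) and the cytokine signalling inhibitor Socs3 (0.302, 0.270 to 0.337) lie in this stretch. Rpl38 was the only one of 71 ribosomal protein genes at 5 CPM or more to be 2-fold lower, and it no longer was so when the total left out the 50 most abundant genes. The median log2 ratios of chromosomes 14 and 15 were above that of all genes, at 0.25 over 383 genes and 0.17 over 418 genes. Of these genes 125 and 163 were below the parental level, against 6371 of all 10818 genes. The other 4 derivatives had medians of -0.30 to 0.11 for chromosome 14 and -0.02 to 0.09 for chromosome 15. In the other 10 pairs the highest medians were 0.11 and 0.36, so chromosome 15 was higher in another pair. These boundaries were chosen after the values were seen, and DNA copies of these stretches were not measured. In fixed windows of 5 Mb, chromosome 18 from 80 to 85 Mb was also low, with a median log2 ratio of -0.86 over 22 genes. There the other 4 derivatives ranged from -1.08 to 0.38.

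**Figure D4:**
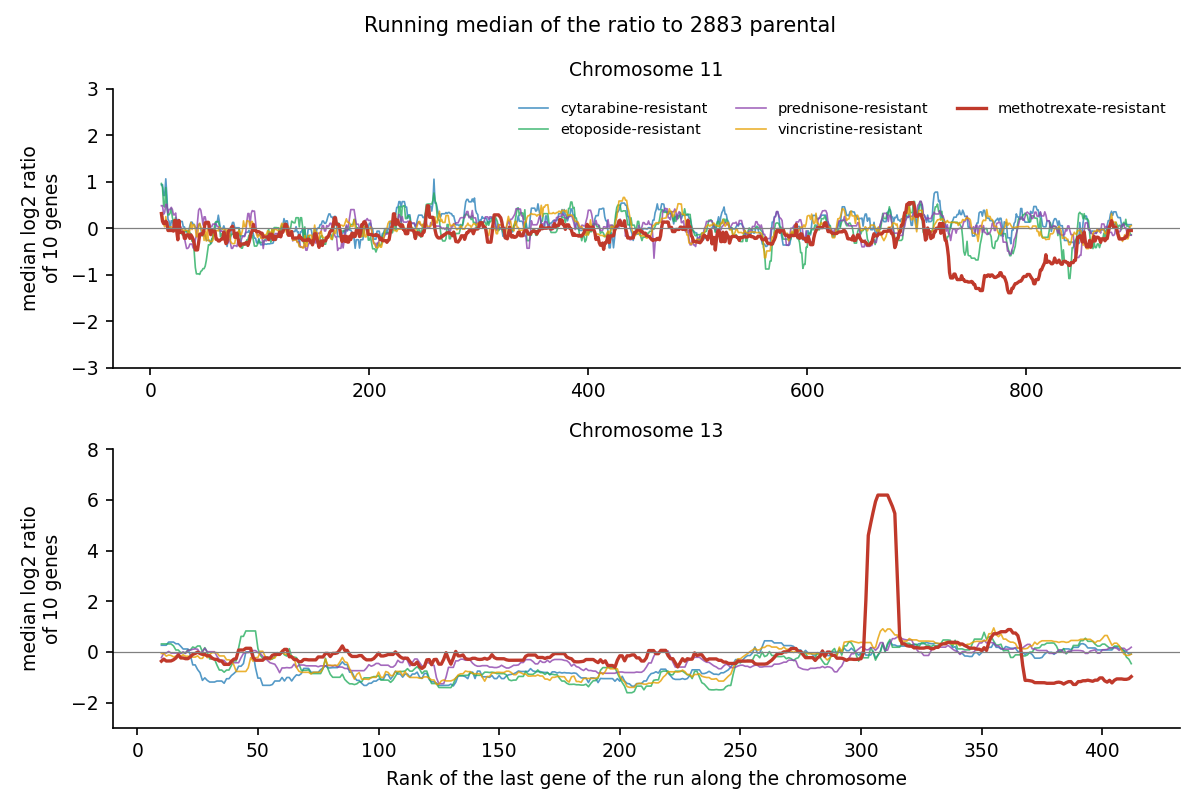
Median log2 ratio to the 2883 parental library over runs of 10 neighbouring genes along chromosomes 11 and 13, against the rank of the last gene of the run; the thick line is the methotrexate derivative and the thin lines the 4 other derivatives. The methotrexate line drops to about -1 near the end of both chromosomes and reaches 6.19 at the block on chromosome 13.

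The lowest run was the T cell receptor beta locus. The run from Mrps33 to Trbc1 (chromosome 6, 39801804 to 41539881) had a median log2 ratio of -2.97, carried by 6 receptor segments. In the other 10 pairs the median of the same genes ran from -4.30 to 0.03, so lower values occurred elsewhere. The variable segments Trbv12-1 and Trbv20 went from 282 and 98 reads to 0, Trbv5 from 140 reads to 1, Trbv15 from 67 to 2 and Trbv19 from 105 to 7.54 CPM. Constant segment Trbc1 went from 124 to 27.9 CPM (0.225, 0.200 to 0.251), Trbc2 from 328 to 258 CPM, and Trbv31, at the far end of the locus, went from 36.6 to 104.5 CPM. In the other 4 derivatives Trbv19 was at 0 reads and Trbc1 ranged from 0.00582 to 503 CPM. Segments Trbc1 and Trbc2 are near-identical copies, so the division of their reads is uncertain. Mrps33, Agk, Dennd11 and Ssbp1, which precede the segments, were at 0.696, 0.936, 0.300 and 1.00 of the parental level.

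Other T cell genes moved in both directions. Of the 36 T cell identity genes 31 reached 5 CPM, and the median was 0.05 relative to all genes. Of the 31, 3 were at least 2-fold higher and 4 lower, against 5.09% and 5.65% of all genes. Lef1, a transcription factor of early T cells, was at 594 CPM in the parental library, 598 with cytarabine, 958 with etoposide, 603 with prednisone, 703 with vincristine and 207 with methotrexate (0.348, 0.333 to 0.363). Thy1 was at 386 CPM against 772 to 1244 CPM in the other 5 libraries (0.458 of the parental level, 0.443 to 0.473). Both were below all other libraries of the series. Cd4 went from 8.74 to 1.29 CPM (0.147, 0.0837 to 0.243), and the etoposide, prednisone and vincristine derivatives were lower still. The template-independent polymerase Dntt was 2.07-fold higher (1.99 to 2.15), at 663 CPM, above the 289.6 to 556 CPM of the other 5, the costimulatory receptor Cd28 2.61-fold (2.23 to 3.06) and Trac 4.36-fold (2.71 to 7.33). Of cytotoxic genes, Gzma, granzyme A, went from 120.1 to 402 CPM (3.35-fold, 3.16 to 3.55), with 289 CPM in the vincristine derivative. Notch1, the receptor that drives most T-ALL, was at 0.566 (0.552 to 0.581) of the parental level, at 739 CPM against 903 to 1322 in the other 5 libraries. Its feedback inhibitor Nrarp was at 0.361 (0.318 to 0.409). Of 12 Notch pathway genes at 5 CPM or more 1 was lower by 2-fold and 1, Adam19, higher (4.13, 3.50 to 4.89). Over all genes 5.65% were lower and 5.09% higher.

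Genes of glycolysis and the hypoxia response were the list with the highest median among lists with at least 9 members at 5 CPM. Of 28 genes 8 were at least 2-fold higher and none lower, against 5.09% of all genes higher, and the median was 0.79 relative to all genes. Slc2a3, a glucose transporter, was at 14.8 CPM in the parental library, 41.5 with cytarabine, 67.8 with etoposide, 67.6 with prednisone, 12.4 with vincristine and 149 with methotrexate (10.0-fold, 8.61 to 11.8). The methotrexate value was above those of the other 5 libraries. Bnip3, a mitophagy receptor, was 3.89-fold higher (3.50 to 4.33), Slc16a3, a lactate exporter, 3.28-fold (2.97 to 3.63) and enolase Eno1 2.99-fold (2.89 to 3.09). For Bnip3 and Slc16a3 the etoposide derivative was higher, at 201 and 224 CPM. The summed level of the list was 16017 CPM in the methotrexate library and 6863 to 20512 CPM in the other 5, so the list as a whole stayed within the range of the line.

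Most genes of the cell cycle were lower, by less than 2-fold. All 32 genes of the mitosis list reached 5 CPM, and 30 of them were below the parental level, against 6371 of all 10818 genes. Their median was -0.39 relative to all genes. Plk1, a mitotic kinase, was the one 2-fold lower gene (0.482, 0.442 to 0.525), and scaling by median of ratios (-0.98) or without the 50 most abundant genes (-0.95) put its log2 ratio under 2-fold. The G1/S and E2F list had the same relative median of -0.39, with 27 of 30 genes below the parental level. Of the 30, 3 were at least 2-fold lower and none higher, against 5.65% and 5.09% of all genes. These were Ccnd3, cyclin D3, at 0.410 (0.388 to 0.433), Rbl1, and Cdkn1a, which is also among the p53 targets below. The pocket protein gene Rbl1 was at 0.499 (0.461 to 0.541) and below the 134 to 167 CPM of the other 5 libraries. Scaling by median of ratios (-0.93), without the 50 most abundant genes (-0.90) or with a pseudocount of 1 CPM (-0.99) put it under 2-fold. The summed level of the G1/S list was 4385 CPM against 4783 to 6143 CPM in the other 5 libraries, and that of the mitosis list, 6459 CPM, was inside their range of 6252 to 10249 CPM. Of 15 p53 targets at 5 CPM or more 3 were lower and none higher, against 5.65% and 5.09% of all genes. These were Gadd45a, a stress sensor (0.111, 0.0900 to 0.137), Cdkn1a, the p21 kinase inhibitor (0.288, 0.217 to 0.378), and Ei24 (0.485, 0.436 to 0.539), which scaling by median of ratios (-0.97) or without the 50 most abundant genes (-0.94) put under 2-fold. Cdkn1a, at 5.05 CPM, was higher than in the other 4 derivatives (0.555 to 1.46 CPM).

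**Figure D5:**
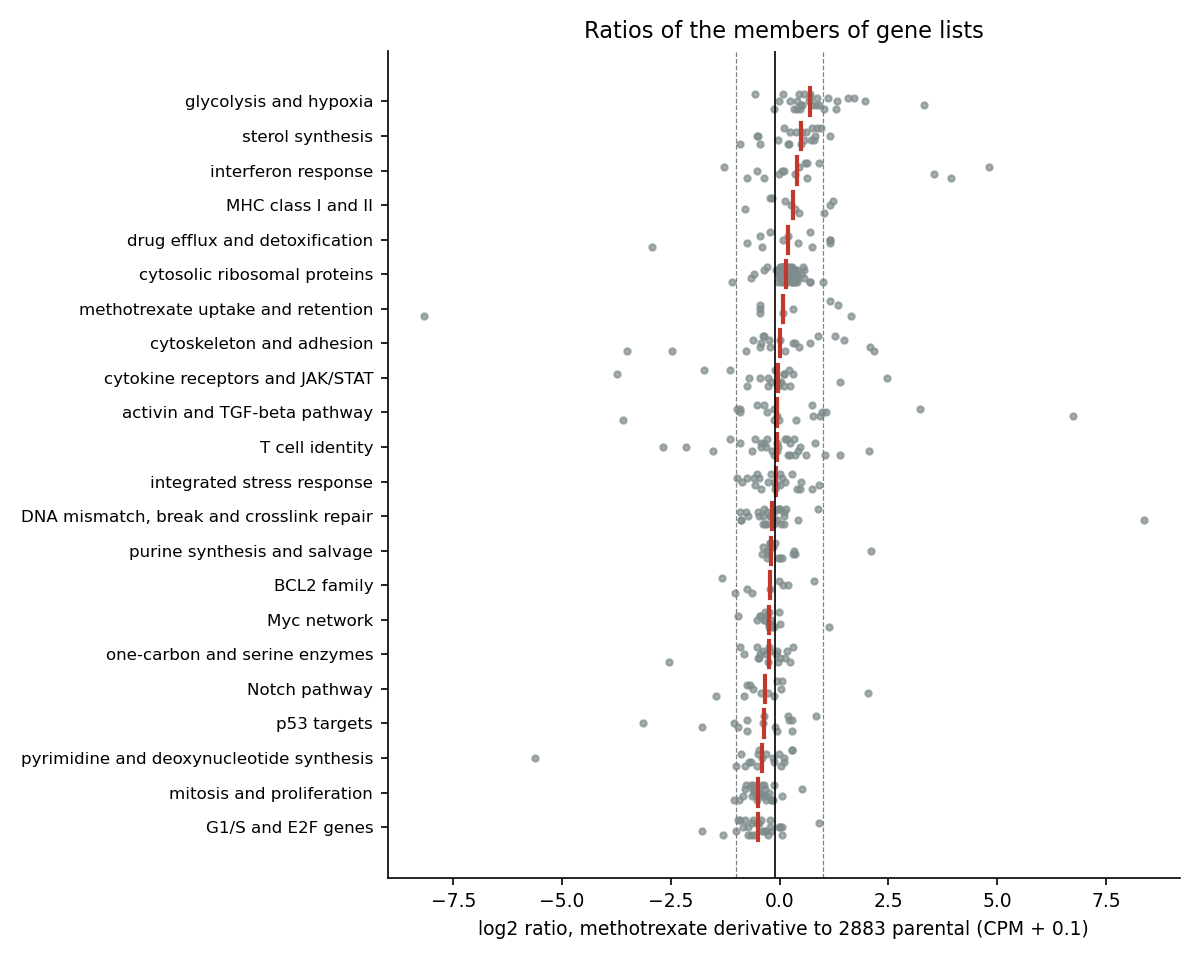
Log2 ratios of the methotrexate derivative to the 2883 parental library (CPM + 0.1) for members at 5 CPM or more of lists with at least 9 such members; grey points are genes, thick bars list medians, the solid line the median of all genes (-0.10) and dashed lines 2-fold. Glycolysis and hypoxia genes lie furthest to the right and the cell cycle lists furthest to the left, while single members such as Msh3 and Slc19a1 lie far outside their lists.

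Several smaller groups contained a few large changes. Of 16 interferon response genes at 5 CPM or more, 3 were at least 2-fold higher and 1 lower, against 5.09% and 5.65% of all genes. Ifitm2 (37.1-fold, 14.2 to 138), Mx1 (17.8-fold, 8.83 to 41.9) and Mx2 (15.3-fold, 5.73 to 57.8) were higher and Zbp1 lower (0.410, 0.300 to 0.554). These 3 were higher still in the prednisone derivative, at 15.8, 26.99 and 8.44 CPM. Of 10 MHC genes, 3 were at least 2-fold higher and none lower, against the same shares of all genes. H2-T23 (2.36, 1.99 to 2.81), H2-T22 (2.22, 2.02 to 2.44) and H2-D1 (2.03, 1.77 to 2.34) were higher, the last under 2-fold with a pseudocount of 1 CPM (0.99). Interferon-induced and MHC genes have close relatives, and how reads were divided among them is not known here. Of 19 activin and TGF-beta genes at 5 CPM or more, 3 were at least 2-fold higher and 1 lower, against 5.09% and 5.65% of all genes. The beta B subunit Inhbb went from 0.667 to 82.3 CPM (125-fold, 63.2 to 290.0) and stood at 47.9 CPM with prednisone. The beta A subunit Inhba went from 6.35 to 0.434 CPM (0.0673, 0.0239 to 0.153). Ltbp3, which stores latent TGF-beta, was 9.91-fold higher (6.34 to 16.3). Of 5 galectin genes at 5 CPM or more, 2 were at least 2-fold higher and none lower, against 5.09% and 5.65% of all genes. The higher ones were Lgals1 (8.18-fold, 5.99 to 11.4) and Lgals3 (6.48-fold, 3.53 to 13.0). The levels of Lgals3, at 6.41 CPM against 0.212 to 1.76 CPM, and of Inhbb were above those of the other 5 libraries of the line, as was that of H2-T22, at 112 CPM.

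Cytokine signalling and adhesion genes changed in both directions. Of 22 cytokine receptor and JAK/STAT genes at 5 CPM or more, 2 were at least 2-fold higher and 3 lower. Of 21 cytoskeleton and adhesion genes 4 were higher and 2 lower. Over all genes 5.09% were higher and 5.65% lower. The interleukin receptor chain Il2rb (5.59-fold, 4.22 to 7.53) and the kinase Jak3 (2.65-fold, 2.04 to 3.48) were higher, and the inhibitors Socs2 (0.0695, 0.0372 to 0.120) and Socs3 and the receptor chain Il6st (0.455, 0.406 to 0.509) were lower. Il6st lies on the lower distal part of chromosome 13. The integrin gene Itgb3 was 4.55-fold higher (3.56 to 5.87) and the chemokine receptor gene Ccr9 4.35-fold (2.88 to 6.78), with 203 CPM of Itgb3 in the vincristine and 325 CPM of Ccr9 in the cytarabine derivative. Marcks, an actin-binding kinase substrate, was at 0.0867 (0.0720 to 0.104) and the annexin Anxa2 at 0.176 (0.136 to 0.226). Of 13 drug efflux and detoxification genes at 5 CPM or more, 3 were at least 2-fold higher and 1 lower, against the same shares of all genes. The higher ones included Nqo1 (2.26, 1.82 to 2.82) and Aldh2 (2.23, 2.04 to 2.44). The P-glycoprotein gene Abcb1b was at 6.18 CPM in the parental library, 31.4 with cytarabine, 1254 with etoposide, 5.22 with prednisone, 718 with vincristine and 0.718 with methotrexate (0.115, 0.0530 to 0.224), so the methotrexate library was the lowest. Of 9 BCL2 family genes at 5 CPM or more, 2 were at least 2-fold lower and none higher, against the same shares of all genes. Both lower ones were proapoptotic members, Bid (0.400, 0.358 to 0.445) and Bad (0.486, 0.376 to 0.626). Bad was lower by less than 2-fold under median of ratios (-0.96), without the 50 most abundant genes (-0.93) or with a pseudocount of 1 CPM (-0.94). None of 24 genes of the integrated stress response at 5 CPM or more differed by 2-fold, against 5.09% of all genes higher and 5.65% lower.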

How the data were processed

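RNA from 16 cultures was made into stranded mRNA libraries and sequenced, per the labels' protocols. The authors deposited 1 table of FPKM for 13474 genes. The tools cutadapt, STAR and Partek and the build mm10 are listed, per the submitters' processing notes, without versions; no source used here gives the annotation, the counting method or its strand setting. In all 13474 rows the length is the whole gene span, introns included. Of 13201 symbols found in GENCODE vM21, 13080 had the same coordinates; ends are printed 1 base below the deposited stop, which lies 1 past the last base.

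CPM was computed as deposited FPKM times length in kb. The values carry a constant of 0.1 read, and depth was the total that made low values whole. This gave 12144000 to 13497000 reads in the 5 parental and 14064000 to 18953000 in the 11 resistant libraries. Among values of 0.5 to 200 reads, the share within 0.05 of a whole number was 70.8% to 75.8%, too few to treat as counts, so read numbers are estimates. Log2 ratios were of CPM + 0.1, and changes were called at 2-fold for genes with 5 CPM in the higher library. Python 3.11.15, numpy 2.4.6, pandas 2.3.3 and scipy 1.17.1 were used, and the ratio and interval code was tested on simulated data.

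Samples were grouped by label. No test was made, since each state is 1 library. Members and lists were chosen with earlier results of these data known. Genes named are the members of the uptake, target and one-carbon lists, the 15 highest and 15 lowest ratios, up to 4 changed members of each other list, the highest and lowest runs, and the 10 furthest outside the range of the line in each direction. Predicted genes and receptor segments were left out of the rankings. The CD3 genes, Dntt, Cd28, Notch1, Il6st, Tert, Trbv31, Trbc2, Dnmt3a, Mcm2 and the genes next to the chromosome 13 block, Slc19a1 and Ccnb3 or at the ends of chromosome stretches were named after their values were seen. Certain genes are not reported here and were left out of lists, runs and rankings. Alternatives were other floors, scalings, pseudocounts and run lengths.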

Additional observations from a re-analysis of the deposited data

Results flagged for a closer look

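Some genes moved at least 2-fold one way in the methotrexate derivative and at least 2-fold the opposite way in all 4 other derivatives of line 2883. The 5 derivatives share 1 parental library and the differences were not tested. Of 10818 genes there were 15 such genes, and the 13 that are not predicted genes are named here. Those higher with methotrexate, with their log2 ratios, were Gucy2e at 3.11, Trf (transferrin) at 2.87, Slc25a45 at 2.67, Pfn4 at 2.35, Hc (complement component C5) at 2.23, Arrb1 (beta-arrestin 1) at 2.07, Tsc22d1 at 1.94, Ptk2 (focal adhesion kinase) at 1.49 and Mmp12 at 1.07. Trf was at 9.97 CPM in the parental library, 73.7 with methotrexate and 0.762 to 2.81 in the other 4. Those lower with methotrexate were Lamc1 (a laminin subunit) at -5.74, Dpysl5 at -5.38, Clstn1 at -4.16 and Med12l at -1.06. The value of Lamc1, with 0 reads here, depends on the pseudocount. Dpysl5 was at 25.1 CPM in the parental library, 0.505 with methotrexate and 54.8 to 189.9 in the other 4.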

How the results depend on the processing

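Counts depended on the floor and the pseudocount. Genes at least 2-fold higher than in the parent numbered 957 with a floor of 1 CPM, 219 with 20 CPM, 1113 without a floor, 70 with 5 FPKM and 114 with a pseudocount of 1 FPKM. Those lower numbered 328 with 20 CPM, 1076 without a floor, 115 with 5 FPKM and 129 with a pseudocount of 1 FPKM. Above the range of the other 5 libraries of the line were 139, 37, 152, 19 and 24 genes with a floor of 1 CPM, of 20 CPM, none, of 5 FPKM, and a pseudocount of 1 FPKM. Below it were 186 with 20 CPM, 42 with 5 FPKM and 17 with a pseudocount of 1 FPKM. Fewer genes are tested under the stricter floors. For the other settings the counts stayed within 1.5 times. The highest run had a median of 8.37 over 5 genes and 5.28 over 20 genes, on chromosome 13 each time. The lowest had -2.31 with a pseudocount of 1 CPM, -4.36 with a floor of 1 CPM, -6.03 over 5 genes and -1.24 over 20 genes, the last on chromosome 13 and the others on chromosome 6. The 131 named genes, called or not, gave 393 comparisons. No called gene reversed, and in 19 comparisons a called gene fell under 2-fold. Some genes near the parental level changed sign without the 50 most abundant genes, such as Psat1 (-0.08 to 0.02) and Shmt1 (-0.03 to 0.07). Of 124 list medians compared, 8 changed sign, those of the T cell identity, integrated stress response, activin and cytokine receptor lists, which lay between -0.09 and -0.04. Leaving out a replicate was not possible with 1 library per state. No paired analysis was possible because each state is a single library. Ratios resting on few reads, such as that of Rasgrf2, are limited by depth.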

Other observations

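Dnmt3a, a de novo DNA methyltransferase, was at 116 CPM in the parental library, 262 with cytarabine, 130.2 with etoposide, 8.96 with prednisone, 142 with vincristine and 1.57 with methotrexate (0.0134 of the parental level, 95% interval 0.00840 to 0.0204). Mcm2, the gene named in the genotype of the line, was at 54.0 CPM with methotrexate, 0.558 of the parental level (0.509 to 0.612) and below the 82.4 to 103 CPM of the other 5 libraries of the line.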
